A study of Mus musculus with 6 samples.

Results

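Common lymphoid progenitors (CLP) were compared with haematopoietic stem cells (HSC) of the fetal liver within each of 2 genotypes. The comparison took the 2 CLP arrays and the 2 HSC arrays out of the 6 single-channel expression arrays of the series, which was made to look for genes that depend on the chromatin organiser Satb1 in early lymphoid progenitors. The arrays were paired by genotype, CLP minus HSC in wild type mice and CLP minus HSC in their Satb1-null littermates, so that the genotypes served as 2 repeats of the comparison. The other 2 arrays hold lymphoid-primed multipotent progenitors (LMPP) and were set beside these to find genes high at both ends and low between them.

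All cells were sorted without culture from fetal liver at embryonic day E18.5 on the C57BL6/J background. The HSC-enriched gate took cells negative for lineage markers (Lin-) and Flt3 with high c-kit and with Sca-1, the LMPP-enriched gate took the Flt3+ cells of otherwise the same phenotype, and the CLP-enriched gate took Lin- cells with the IL-7 receptor alpha chain and low levels of Sca-1 and c-kit. Each of the 6 groups had 1 array, made from 6.1 ng of total RNA after whole-transcriptome amplification. The number of embryos per sort and any sharing of embryos between sorts are not stated, and all p-values therefore measure the spread between these arrays, which may be partly technical. No replicate array stands behind either member of a pair.

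HSC renew themselves and give rise to every blood lineage, and they are held in that state by a set of transcription factors that includes Hlf, Mecom, Meis1 and the Hoxa proteins. LMPP have largely lost the potential to form megakaryocytes and red cells, and CLP depend on signals through the IL-7 receptor and can give B, T, natural killer and dendritic cells. The fetal liver at this stage is also the main site of red cell and granulocyte formation, so the sorted progenitors come from a tissue rich in maturing myeloid and erythroid cells.

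Levels below are log2 values relative to the 75th percentile over an array's spots, and differences are CLP minus HSC on the log2 scale, where 1 is 2-fold. The share of spots well above background was 52.4% to 57.7% per array, and no spot was saturated. Where a gene did not reach well above background on the dimmer array, that array's value was raised to its lowest signal well above background if it lay below it, and the resulting lower bound is written with "at least". The median error of a difference by the scanner's own estimate was 0.205. Satb1 itself was well above background on all 6 arrays, and its CLP minus HSC difference was 0.74 in wild type and 1.25 in the null pair. Where its probe lies relative to the deleted part is not stated, so it checks no label. Xist did not separate CLP from HSC, since it was high on all 3 null arrays (4.18 to 4.74) and not well above background on the wild type ones. It did separate the genotypes, so the wild type and null pairs differed in Xist as well as in Satb1 genotype. For differences between the pairs given below, these 2 cannot be told apart.

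The sort markers followed the gates in part. Il7r, the chain used to gate CLP, stood at -2.64 in wild type HSC and 1.61 in wild type CLP, and at -1.71 and 1.55 in the null pair. Both CLP arrays lay above both HSC arrays, and the fit gave a rise of 3.76 ± 0.34 (SE; limma adjusted p = 0.0135). Kit, the stem cell factor receptor, differed by -1.63 and -0.90 and did not pass the test (limma adjusted p = 0.106). Ly6a, which encodes Sca-1, differed by -0.08 and -0.85 and did not pass the test (limma adjusted p = 0.443). Both of its CLP arrays lay below both HSC arrays, but the wild type difference was smaller than its scanner error of 0.21. Flt3, the receptor absent from the HSC gate and highest in LMPP, differed by -0.32 and 0.44, so CLP and HSC levels overlapped. Slamf1, a surface marker of adult HSC, was not well above background on any array.

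Over all 13138 genes compared in both pairs, 1192 genes (9.07%) were higher in CLP by more than 2-fold in both, and 873 (6.64%) were lower. Of these, 253 and 369 rest on at least 1 lower bound. The counts given for gene lists below are to be read against the shares of 9.07% and 6.64%. The differences of the wild type pair and the null pair, which share no array, correlated across the 11314 genes well above background on all 4 arrays with Pearson's r = 0.63 and Spearman's rho = 0.56. These coefficients are across genes, which are not independent replicates, and the 2 HSC arrays and the 2 CLP arrays share their gates. Of the 13138 genes compared, lower bounds included, 70.8% had the same sign in both pairs, and 224 (1.70%) passed 2-fold in opposite directions. The median difference over all genes was 0.06 in wild type and 0.04 in the null pair.

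A limma model with terms for genotype and population, fitted to the 6 arrays, called 675 of 13725 genes higher (4.92%) and 456 lower (3.32%) at an adjusted p below 0.05, 8.24% in all, and all 1131 of them also passed 2-fold in both pairs. In what follows a gene is said to have risen or fallen only where this fit called it. The spread in the fit is the departure from additive effects of genotype and population. A CLP minus HSC difference that varies between the genotypes therefore widens it. With the 4 HSC and CLP arrays alone, which leave 1 residual degree of freedom, the fit called no gene (3204 genes at an unadjusted p below 0.05, smallest adjusted p 0.0661), so every call also rests on the spread of the LMPP arrays. The share of higher genes among those past 2-fold depended on the centring: it was 57.7% here, 78.0% (1958 higher, 552 lower) with each array centred on its median, 41.6% (893 and 1252) with detected-probe centring, which takes the percentile over probes well above background on every array, and 45.4% (956 and 1152) with the authors' processed values. These settings shifted the median of all genes by 0.38, -0.23 and -0.18.

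**Figure D1:**
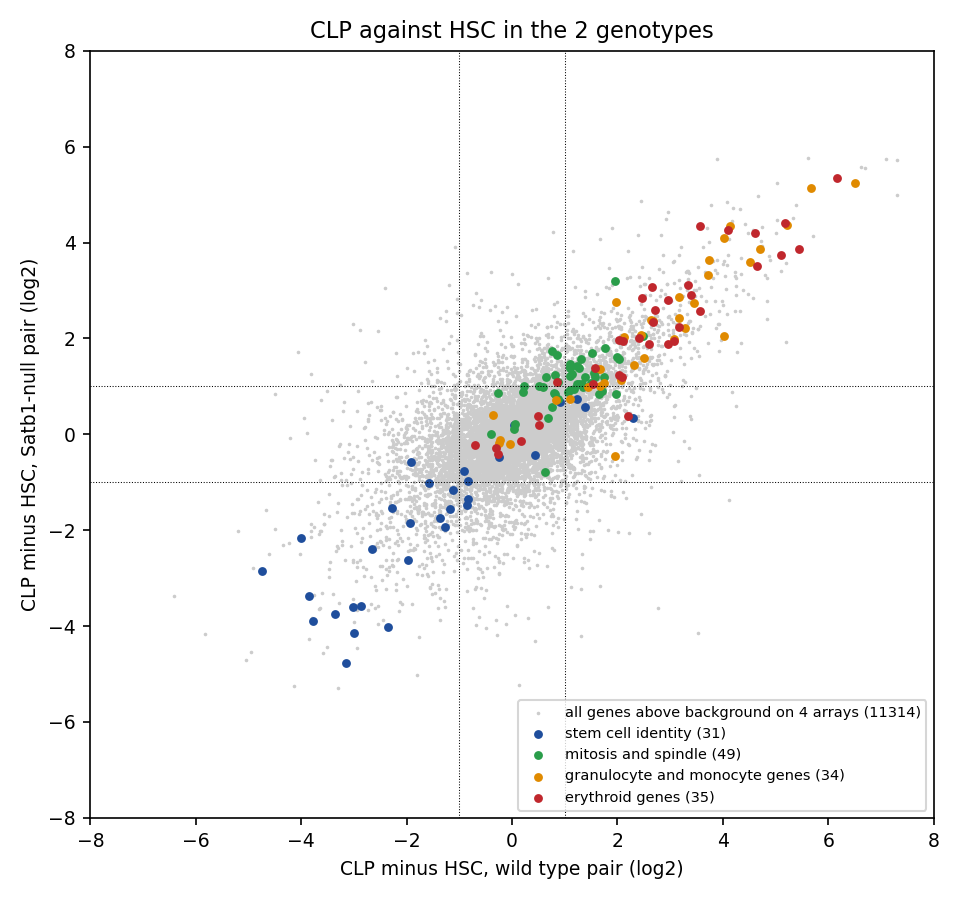
Each point is a gene well above background on all 4 HSC and CLP arrays, with the CLP minus HSC difference of the wild type pair (log2) on the horizontal axis and that of the Satb1-null pair on the vertical axis; coloured points are members of the named lists. Over the 11314 genes r was 0.63, with stem cell genes at the lower left and erythroid and granulocyte genes at the upper right.

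Stem cell genes were lower in CLP. Of 38 stem cell identity genes compared, 24 were lower by more than 2-fold in both pairs and 0 were higher, and 19 of the 38 fitted genes fell. The list median was -1.79 against 0.03 over all genes, and it stayed between -2.03 and -1.40 under every scaling tried. Procr, the endothelial protein C receptor that marks HSC, stood at 2.25 and 2.49 on the wild type and null HSC arrays and at -3.57 on the wild type CLP array, and the null CLP array was not well above background. Both HSC arrays were far above both CLP arrays, with a 56.8-fold difference in wild type and one of at least 102-fold in the null pair (limma adjusted p = 0.0122). Mecom, a zinc finger factor needed for HSC maintenance, stood at -0.00 and 0.48 in HSC and was not well above background on either CLP array, so it was at least 17.0-fold and at least 25.3-fold lower (limma adjusted p = 0.0122).

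Hlf, a leucine zipper factor of HSC, stood at 4.47 and 5.02 in HSC and at -0.29 and 2.16 in CLP. The groups did not overlap, and the null CLP array kept the higher level of the 2 CLP arrays (differences of -4.75 and -2.86, limma adjusted p = 0.0392). Mycn, a Myc family factor, went from 5.97 and 6.41 to 2.13 and 3.03 (limma adjusted p = 0.0127). Robo4 (-3.15 and -4.78) and Esam (-3.0 and -4.14), surface proteins shared by HSC and endothelium, fell as well. Gata2, a factor of HSC and mast cells, differed by -1.17 and -1.56 without a call, and Lmo2 (-0.91 and -0.76) did not pass 2-fold.

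Hox genes were lower as well. Of 18 Hox genes and cofactors compared, 10 were lower and 0 higher, and 9 of 22 fitted genes fell, with a median of -1.67. Hoxa9, which supports self-renewal, stood at 0.55 and 1.15 in HSC and at -3.24 and -2.75 in CLP, a difference of 13.8-fold and 14.9-fold (limma adjusted p = 0.0149). Its cofactor Meis1 went from 3.64 and 3.51 to 0.27 and -0.24 (limma adjusted p = 0.0127), and Hoxa3, Hoxa5 and Hoxa10 fell too. Hoxa3 differed by -2.77 in wild type and by at least -6.16 in the null pair, and the difference between the pairs was not tested. In contrast the cofactor gene Pknox1 (0.44 and 0.18) lay within 2-fold.

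Gimap GTPases, small GTP-binding proteins of lymphocytes and early progenitors, were also lower. Of 7 compared, 5 were lower and 0 higher, and 4 of 8 fitted genes fell. Gimap8 stood at 4.88 and 4.99 in HSC and at -0.17 and 0.30 in CLP, a fall of 33.1-fold and 25.9-fold (limma adjusted p = 0.0122). Of the genes measured on all 4 arrays, no other gene was further down by the smaller of its pair differences. Gimap1 and Gimap6 fell (limma adjusted p = 0.0489 and 0.0215), whereas Gimap4 differed by 0.02 and -0.11 by its brightest probe and by at least 1.64 and 0.66 by another.

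Several genes of fetal growth and self-renewal control were lower in CLP. Of 19 imprinted growth genes 8 were lower and 2 higher (6 fell and 1 rose), with a median of -1.21. Dlk1, a Notch-like surface protein, stood at 4.15 and 4.69 in HSC and at 0.30 and 0.41 in CLP (limma adjusted p = 0.0135). Its neighbour Meg3, a noncoding RNA, fell by at least 3.22 and 3.31 by the 1 of its 3 probes that was detected. Cdkn1c, an imprinted inhibitor of the cell cycle linked to HSC quiescence, fell by at least 2.55 and 3.34 (limma adjusted p = 0.0308). Mest, which encodes a hydrolase-like protein, rose by 3.18 and at least 4.39.

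The list of Wnt pathway genes had 4 of 32 members lower and 1 higher, with a median of -0.42. The receptors Fzd4 and Fzd6 and the secreted inhibitor Sfrp2 fell, while Axin1 differed by -0.01 and 0.11. Chromatin and Polycomb genes had 6 of 41 lower and 1 higher, with a median of -0.05 that turned positive with median centring. In that list Cbx7, a Polycomb subunit of HSC, fell by 1.77 and 1.56 (limma adjusted p = 0.0421). By their brightest probes Pcgf2 (-2.83 and -2.77) and the DNA demethylase Tet1 (-2.90 and -1.66) fell also. Their other probes differed less, by 0.02 and -0.79 for Pcgf2 (well above background on 3 of 4 arrays) and by -0.81 and -0.23 for Tet1. Igf2bp1, an RNA-binding protein of the fetal programme, fell by at least 3.36 in wild type and by 2.06 in the null pair, and Hmga2, a fetal HSC factor named here after its values were seen, fell by 1.89 and 1.40 (limma adjusted p = 0.0409).

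**Figure D2:**
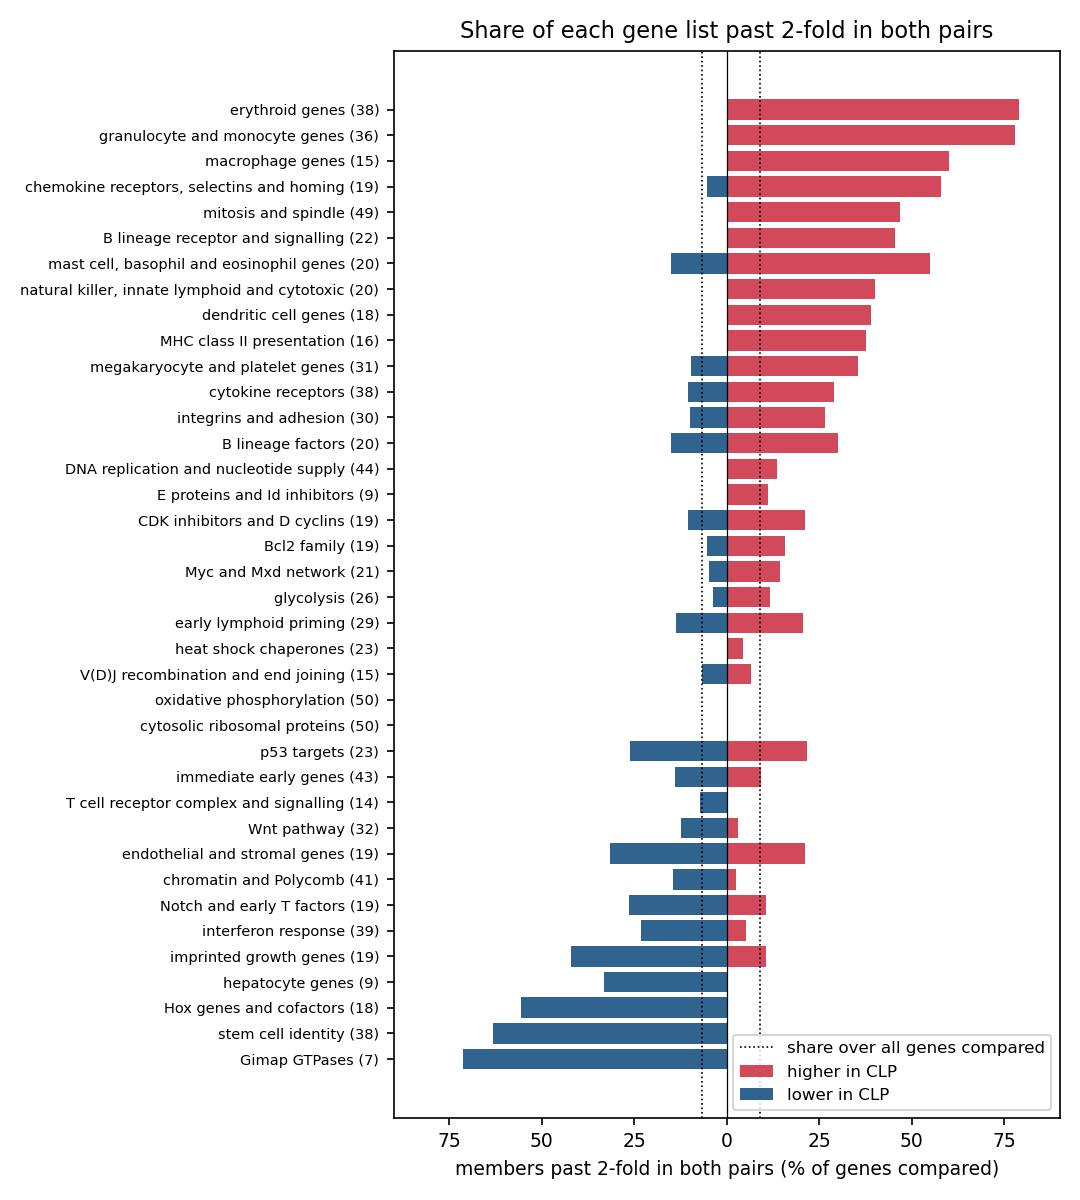
Bars give the percentage of the compared members of each gene list that were higher (right) or lower (left) in CLP by more than 2-fold in both pairs; dotted lines mark 9.07% and 6.64%, the shares over all genes. The erythroid and granulocyte lists reach furthest to the right (78.9% and 77.8%), and the Gimap list furthest to the left (71.4%).

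Lymphoid genes moved in both directions. Of 29 early lymphoid genes, 6 were higher and 4 lower, with a median of 0.45, and 3 rose and 4 fell. Il7r is described above. Ccr9, a chemokine receptor that guides progenitors to the thymus, stood at -1.94 and -1.48 in HSC, 1.87 and 1.07 in LMPP and 0.66 and 1.44 in CLP. Both CLP arrays were above both HSC arrays, by 6.09-fold and 7.54-fold (limma adjusted p = 0.0359). Cd27, a receptor of the tumour necrosis factor family, went the other way, from 1.39 and 2.17 in HSC to -2.21 and -1.15 in CLP, below both LMPP arrays too (2.52 and 3.03; limma adjusted p = 0.0123). Ltb (-2.39 and -3.23), Il12rb2 (at least -3.82, and -2.82) and Wfdc17 (-2.72 and -1.86) fell with it.

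The recombinase genes differed from each other. Rag1 was not well above background in wild type HSC, stood at -2.59 in null HSC and reached -1.88 and 0.53 in CLP. It was at least 4.45-fold and 8.69-fold higher in CLP, but its CLP levels differed by over 2 log2 units between genotypes and the fit did not call it (limma adjusted p = 0.0879). Rag2 differed by -0.32 in wild type and by 2.67 in the null pair. Dntt, the enzyme that adds untemplated nucleotides, differed by 0.49 and at least 0.25. Of 15 genes of V(D)J recombination and end joining, 1 was higher and 1, the polymerase gene Poll, was lower, with a median of 0.35. Each share was 6.67%, near the 9.07% higher and 6.64% lower over all genes.

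Among B lineage factors 6 of 20 were higher and 3 lower. Their median of 0.07 turned negative with detected-probe centring, with normexp, with the authors' values and with the mean over probes. Pax5, which commits cells to the B lineage, stood at -2.34 and -0.64 in HSC and at 0.42 and 0.99 in CLP, so the groups did not overlap (limma adjusted p = 0.0357). Spib, Pou2af1 and Ets1 rose also, by 3.62 or more, 3.27 or more and 2.87 or more in the 2 pairs. Ebf1, the factor that acts ahead of Pax5, was well above background in null CLP alone, at -1.94. Foxo1 (-1.15 and -1.13) and Sox4 (-1.18 and -2.06) differed downward without a call, and the progenitor factor Zfp521 fell by at least 1.53 and 2.27 (limma adjusted p = 0.0345). Bcl11a differed by -0.27 and -0.42.

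Of 22 B lineage receptor and signalling genes, 10 were higher and 0 lower, and 5 of 22 rose (median 1.39). Igll1, part of the surrogate light chain of the pre-B receptor, stood at -0.77 in wild type CLP and 0.05 in null CLP, was not well above background in wild type HSC and stood at -2.96 in null HSC. It was at least 9.58-fold and 8.05-fold higher (limma adjusted p = 0.0367), and the related pre-B gene Vpreb3 rose too (limma adjusted p = 0.0192). Cd79a, a signalling chain of the B cell receptor, was higher by 1.96 and at least 2.87 without a call (limma adjusted p = 0.0724). Ms4a1 and Blk, genes of more mature B cells, were not well above background on any HSC or CLP array.

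Notch and early T genes were mixed, with 2 of 19 higher, 5 lower and a median of -0.08 that turned positive with median centring. Tcf7, an early T cell factor, stood at -2.13 and -2.56 in HSC and 0.10 and 0.72 in CLP (limma adjusted p = 0.0243). Notch1, the receptor that drives T cell fate, was higher by 1.71 and 1.32 without a call, and by 1.28 and 0.50 by its other probe. Nrarp, a target and inhibitor of Notch, went from 0.49 and 0.78 in HSC to a level not well above background in wild type CLP and -2.54 in null CLP (limma adjusted p = 0.0192). The ligand gene Jag2 and the glycosyltransferase gene Mfng fell, and the Notch target Hes5 differed by -1.30 and -3.48 without a call.

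In the T cell receptor list Cd27 was the 1 gene of 14 past 2-fold in both pairs, and 0 were higher, with a median of 0.17 that turned negative with detected-probe centring, with the authors' values and with the mean over probes. Natural killer and innate lymphoid genes had 8 of 20 higher and 0 lower, with a median of 1.48, and 5 of 21 rose. Id2, an inhibitor of E proteins needed for innate lymphoid cells and used by myeloid and dendritic cells, went from -2.25 and -1.17 to 2.62 and 2.53 (limma adjusted p = 0.0127). The adaptor genes Fcer1g and Tyrobp, which myeloid cells use too, and the cytokine receptor gene Il2rb rose as well. Ncr1, Klrk1 and Eomes, which define natural killer cells, were not well above background on the HSC and CLP arrays. Of 9 E protein and Id genes Id2 was the 1 past 2-fold.

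**Figure D3:**
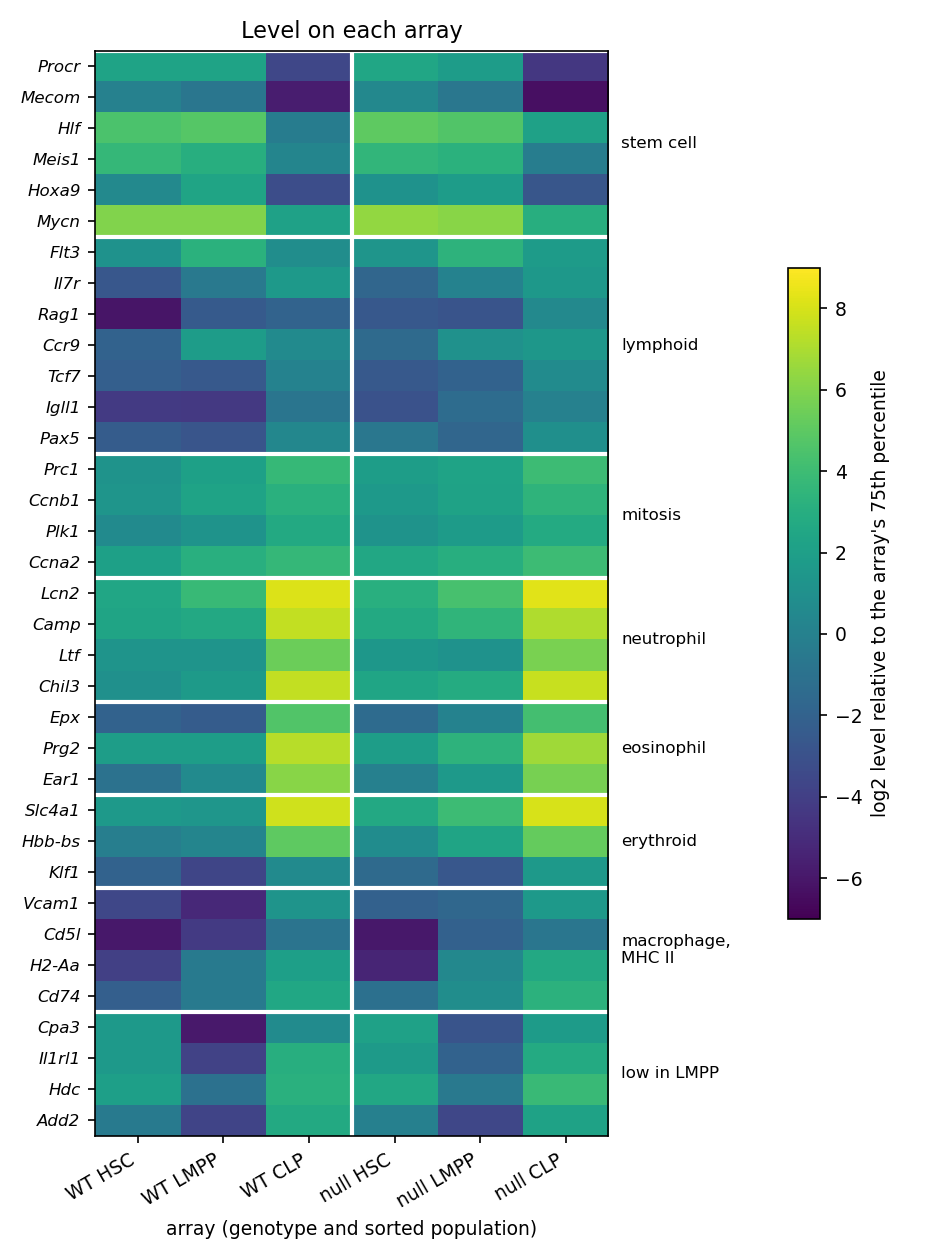
Colour gives the log2 level relative to the array's 75th percentile for genes of 8 groups (rows) on the 6 arrays (columns). Wild type is on the left and Satb1-null on the right. Levels below about -4 are not well above background. Some levels near it are not either, such as Add2 in wild type LMPP (-3.70) and null LMPP (-3.62). Procr falls from 2.25 and 2.49 in HSC to -3.57 in wild type CLP and to a level not well above background in null CLP, while Lcn2 reaches 8.13 and 8.26 in CLP.

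Cell cycle genes were higher in CLP. Of 49 mitosis and spindle genes compared, 23 were higher and 0 lower, 9 of 50 rose, and 46 were higher in both pairs by any amount (median 1.19). Prc1, which bundles spindle microtubules, stood at 1.23 and 1.90 in HSC, 2.08 and 2.28 in LMPP and 3.72 and 3.96 in CLP. CLP lay above the other populations in both genotypes, and above HSC by 5.62-fold and 4.15-fold (limma adjusted p = 0.0199). The phosphatase gene Cdc25b (1.95 and 3.20), the cyclin gene Ccnb1 (1.76 and 1.80), the kinesin gene Kif4 (2.0 and 1.62) and the kinase gene Plk1 (2.03 and 1.57) rose too. Birc5, a bright member of the list, differed by 0.81 and 0.85. Of 44 replication genes 6 were higher and 0 lower (median 0.66). Rrm2, which makes deoxynucleotides, rose by 2.57 and 2.08, Ccne1 and Cdc6 rose, and Mcm6 differed by 0.28 and 0.22.

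The promoters of the 4 mitosis genes with the largest smaller difference are printed because genes of this list move together. Each is the RefSeq sequence of GRCm38.p6 from 250 bases before to 50 after the first-listed start, 5′ to 3′ on the gene's strand, and capitals mark the cell cycle gene homology region (CHR) core TTTGAA, searched on both strands.
Prc1 (chr7:80294201-80294500, forward strand): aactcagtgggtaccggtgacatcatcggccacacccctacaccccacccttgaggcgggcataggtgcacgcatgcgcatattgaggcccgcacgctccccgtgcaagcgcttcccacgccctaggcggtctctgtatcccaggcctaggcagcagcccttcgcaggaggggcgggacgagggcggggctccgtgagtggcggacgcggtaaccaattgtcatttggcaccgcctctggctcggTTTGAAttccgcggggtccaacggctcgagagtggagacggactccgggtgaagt
Cdc25b (chr2:131186698-131186997, forward strand): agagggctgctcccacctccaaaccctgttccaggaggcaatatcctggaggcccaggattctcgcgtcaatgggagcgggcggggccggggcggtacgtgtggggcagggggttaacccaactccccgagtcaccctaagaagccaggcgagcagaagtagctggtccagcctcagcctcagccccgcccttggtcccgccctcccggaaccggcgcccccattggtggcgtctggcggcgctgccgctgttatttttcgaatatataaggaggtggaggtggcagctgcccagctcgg
Ccnb1 (chr13:100786437-100786736, reverse strand): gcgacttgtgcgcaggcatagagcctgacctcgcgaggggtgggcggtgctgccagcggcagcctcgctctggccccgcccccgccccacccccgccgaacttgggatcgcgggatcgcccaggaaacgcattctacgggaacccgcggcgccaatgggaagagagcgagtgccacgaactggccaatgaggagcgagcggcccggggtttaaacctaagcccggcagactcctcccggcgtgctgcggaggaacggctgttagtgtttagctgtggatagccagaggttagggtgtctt
Kif4 (chrX:100625815-100626114, forward strand): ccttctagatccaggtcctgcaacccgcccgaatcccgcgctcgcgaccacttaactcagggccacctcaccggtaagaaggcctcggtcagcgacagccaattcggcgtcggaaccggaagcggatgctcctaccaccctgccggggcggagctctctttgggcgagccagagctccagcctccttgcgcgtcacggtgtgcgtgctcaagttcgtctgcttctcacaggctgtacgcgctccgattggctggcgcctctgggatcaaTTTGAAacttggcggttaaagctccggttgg
Prc1 holds its match at -5 from the start and Kif4 at 19, and the windows of Cdc25b and Ccnb1 hold none. Over the list, 30 of 44 promoters (68.2%) held TTTGAA against 18.1% of 27025 promoters and 5 of 35 (14.3%) in the replication list. The CCAAT box (CCAAT, either strand) stood in 72.7% of the mitosis and 57.1% of the replication promoters against 37.9% of all. These matches describe the letters in the windows and show no binding.

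The inhibitors and D cyclins changed unlike one another. Of 19 compared, 4 were higher and 2 lower, with a median of 0.46. Cdkn1a, the p21 inhibitor, stood at 0.72 and 1.80 in HSC and at -1.67 and -0.34 in CLP (limma adjusted p = 0.0179). Cdkn2c, the p18 inhibitor, went from -2.40 in wild type HSC and a level not well above background in null HSC to 1.65 and 2.04 (limma adjusted p = 0.0328). Ccnd3, a cyclin of lymphoid progenitors, rose by 2.10 and 1.71 and Rb1 by 2.18 and 3.26, whereas Cdk4 differed by -0.75 and -0.25.

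Genes of granulocytes and monocytes were higher in CLP. Of 36 compared, 28 were higher and 0 lower, and 23 of 36 rose (median 2.44). The summed level of the list, relative to the 75th percentile, was 911 to 948 on the HSC arrays and 2639 to 2946 on the CLP arrays. Lcn2, an iron-chelating protein of neutrophil granules, stood at 2.45 and 3.12 in HSC, 3.77 and 4.34 in LMPP and 8.13 and 8.26 in CLP. Both CLP arrays were above all others, by 51.1-fold and 35.1-fold over HSC (limma adjusted p = 0.0122). The granule protein genes Camp (5.21 and 4.36), Ltf (4.14 and 4.35) and Ngp (4.03 and 4.10) and Chil3 (6.5 and 5.24) rose likewise. Mpo, the peroxidase of early granulocyte progenitors, differed by 1.09 and 0.74. Csf1r and Itgam differed little by their brightest probes (-0.22 and -0.11; -0.04 and -0.20) but were higher by the others, at 2.31 and 2.24 with 1 Csf1r probe and 3.47 and 2.80 with 1 Itgam probe.

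Macrophage, dendritic cell and antigen presentation genes were higher too. Of 15 macrophage genes 9 were higher and 0 lower (8 of 16 rose, median 1.96), with a summed level of 72.3 to 81.2 in HSC and 110 to 124 in CLP. Most of the HSC sums came from Apoe (differences of -0.15 and -0.25) and from Csf1r by its brightest probe. Vcam1, an adhesion molecule of fetal liver macrophages, went from -3.60 and -2.05 to 1.29 and 1.58 (limma adjusted p = 0.0216). Adgre1, which encodes F4/80, rose by at least 5.47 in wild type and by 4.05 in the null pair, and the ferroportin gene Slc40a1 rose by 4.67 and 4.97. Marco was higher by 3.40 and at least 6.75 without a call (limma adjusted p = 0.0508), and Cd163 and Vsig4 were not well above background on the HSC and CLP arrays. Of 18 dendritic cell genes 7 were higher and 0 lower, Irf8 among them, a factor of monocytes and dendritic cells that stood at -0.34 and -0.51 in HSC and 3.40 and 3.13 in CLP (limma adjusted p = 0.0123). Siglech differed by -0.06 and 0.01 by its brightest probe and by at least 2.84 and at least 4.51 by its other one, with neither HSC array well above background.

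Of 16 genes of MHC class II presentation, 6 were higher and 0 lower, and the same number rose. H2-Aa, a class II chain, was above background on neither HSC array, stood at -0.45 and 0.45 in LMPP and reached 2.05 and 2.67 in CLP. It was at least 64.3-fold and at least 105-fold higher than in HSC (limma adjusted p = 0.0122). Cd74, the invariant chain, went from -2.18 and -1.08 to 2.56 and 3.26 (limma adjusted p = 0.0122), while H2-DMa, which edits the peptides, differed by 0.03 and 0.22. Of 19 chemokine receptor, selectin and homing genes 11 were higher and 1 lower (8 rose, median 1.62). C5ar1 and Fpr2, receptors of phagocytes for complement and formyl peptides, and Ccr2 and Ccr7 rose with Ccr9, and S1pr1, the receptor for sphingosine phosphate, differed by -1.47 and -2.25 without a call.

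Erythroid genes made the other large group. Of 38 compared, 30 were higher and 0 lower, and 24 of 38 rose (median 2.58). The summed level was 984 to 1067 in HSC and 2080 to 2136 in CLP. Most of the HSC sums came from Hemgn alone, at 9.80 and 9.53 in HSC and 9.50 and 9.24 in CLP. The sums therefore understate the rise of the other members. Slc4a1, the anion exchanger of the red cell membrane, stood at 1.65 and 2.68 in HSC, 1.42 and 3.97 in LMPP and 7.82 and 8.02 in CLP. Both CLP arrays lay above all others, by 71.9-fold and 40.4-fold over HSC (limma adjusted p = 0.0164). The beta globin Hbb-bs rose by 5.17 and 4.41, although globin probes can be read by near-identical copies. Hemgn, a bright member, differed by -0.30 and -0.29, Epb41 by 0.51 and 0.19 (by -0.95 and -0.45 at another of its probes), and the embryonic globin Hba-x was not well above background on the HSC and CLP arrays.

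Of 31 megakaryocyte and platelet genes 11 were higher and 3 lower (9 rose and 2 fell, median 0.88), with a summed level of 140 to 167 in HSC and 262 to 321 in CLP. Thbs1, thrombospondin, stood at 0.25 and 0.26 in HSC and at 4.37 and 4.34 in CLP (limma adjusted p = 0.0122), and the platelet chemokines Pf4 and Ppbp and the platelet receptor gene Gp1ba rose. Gp9 differed by 0.52 and -0.87, a gene named here after its values were seen. Integrin and adhesion genes had 8 of 30 higher and 3 lower, with Itgb2 and Itgb3 rising and Jam3 and Esam falling. Endothelial and stromal genes had 4 of 19 higher and 6 lower. Lyve1, Stab1, Stab2 and Cdh5 rose, and Tie1, Tek, Emcn, Robo4 and Col4a2 fell. In the bulk RNA of a sort, more cells of a type and more RNA per cell cannot be told apart. How far cells other than CLP contributed to the rises of the granulocyte, macrophage, eosinophil, basophil, erythroid and megakaryocyte genes was not tested. The same holds for the rises of the mitosis, replication, dendritic cell, MHC class II, chemokine receptor and cytokine receptor genes.

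Eosinophil genes were among the largest single differences. Among genes measured on all 4 arrays, the 12 with the largest smaller difference were Ear1, Rnase2a, Prss34, Epx, Ear10, Slc4a1, Chil3, Lcn2, Prg3, Ear2, Prg2 and Slc40a1. Ear1, an eosinophil ribonuclease, stood at -0.97 and -0.06 in HSC and 6.13 and 5.69 in CLP, 137-fold and 54.0-fold higher (limma adjusted p = 0.0123). The Ear genes and Rnase2a are close copies, so their probes may read each other's transcripts. Epx, the eosinophil peroxidase, is not of that family and went from -1.98 and -1.38 to 4.64 and 4.19 (limma adjusted p = 0.0188), and the granule proteins Prg2 and Prg3 rose by 4.79 or more. The basophil protease gene Prss34 rose by 5.62 and 5.77.

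The mast cell, basophil and eosinophil list as a whole had 11 of 20 genes higher and 3 lower (8 rose and 2 fell, median 1.23), with a summed level of 53 to 69 in HSC and 311 to 394 in CLP. Its mast cell proteases Tpsb2 and Cma1 fell. Tpsb2, a tryptase, stood at 2.56 and 3.15 in HSC, -0.69 and -1.27 in LMPP and -1.57 and -2.11 in CLP, so that HSC lay above the other 4 arrays (limma adjusted p = 0.0127). Cma1, a chymase, stood at 0.05 and 1.08 in HSC and was not well above background on the other 4 arrays (limma adjusted p = 0.0123). Ccr3 and Fcer1a, receptors of eosinophils and of mast cells and basophils, were not well above background on the HSC and CLP arrays.

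A further pattern was a level high at both ends and low in LMPP. Of 11314 genes, 70 (0.619%) were lower in LMPP than in both HSC and CLP by more than 2-fold in both genotypes, 30 of them with an LMPP array not well above background. The count is a description, since the HSC and CLP differences of a genotype share its LMPP array. Of the 70, 34 were also higher in CLP than in HSC, 1 was lower, and 23 lay within 2-fold in both pairs. By the lists, 6 of 35 erythroid genes had this pattern, 4 of 34 granulocyte and monocyte genes, 4 of 14 mast cell, basophil and eosinophil genes and 3 of 35 cytokine receptors, some genes being in more than 1 list.

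Cpa3, the carboxypeptidase of mast cells and their progenitors, led this group by the smallest of its 4 differences. Its levels in HSC, LMPP and CLP, in that order, were 2.18, -2.85 and 1.81 in the null arrays. In wild type it stood at 1.59 in HSC and 0.69 in CLP and was not well above background in LMPP. HSC and CLP differed by -0.90 and -0.37, less than 2-fold, while each stood far above LMPP. Il1rl1, the IL-33 receptor of mast cells and basophils, stood at 1.58, -3.82 and 3.01 and at 1.71, -1.99 and 2.80. Hdc, the enzyme that makes histamine, stood at 2.01, -1.04 and 3.17 and at 2.61, -0.56 and 3.85. For both genes every HSC and CLP array lay above both LMPP arrays, and the CLP minus HSC difference passed 2-fold without a call (limma adjusted p = 0.228 and 0.0575).

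Add2, an adducin of the red cell skeleton, stood at -0.45 and -0.02 in HSC and at 2.72 and 2.23 in CLP, with neither LMPP array well above background, and it also rose from HSC to CLP (limma adjusted p = 0.0198). The other 5 erythroid genes with the pattern, named after their values were seen, were Gata1, Klf1, Epor, Rhag and Rhd. Gata1, the factor shared by erythroid, megakaryocyte, mast cell and eosinophil lineages, stood at 2.17, 0.05 and 4.77 and at 2.69, 1.06 and 4.57 (limma adjusted p = 0.0367 for CLP against HSC), and the red cell factor Klf1 stood at -1.46, -2.65 and 1.60 in the null arrays and, in wild type, at -1.99 in HSC and 0.67 in CLP with LMPP not well above background (limma adjusted p = 0.0149). The 4 granulocyte genes, also named after their values were seen, were Elane, Ctsg, Ms4a3 and Cebpe. Elane, neutrophil elastase, stood at 3.24, 0.96 and 5.74 and at 4.04, 2.39 and 5.63. In both of these lineages the CLP level was the highest of the 3 populations, in contrast to Cpa3. The metal-binding genes Mt1 and Mt2 and the solute carrier gene Slc7a8 had the pattern as well, the first pair again named after their values were seen.

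The promoters of the first 4 genes are printed because GATA factors are known to act on mast cell and red cell genes. Capitals mark the GATA letters AGATAA or GATAAG, which overlap in AGATAAG, searched on both strands of the same RefSeq windows of GRCm38.p6.
Cpa3 (chr3:20242132-20242431, reverse strand): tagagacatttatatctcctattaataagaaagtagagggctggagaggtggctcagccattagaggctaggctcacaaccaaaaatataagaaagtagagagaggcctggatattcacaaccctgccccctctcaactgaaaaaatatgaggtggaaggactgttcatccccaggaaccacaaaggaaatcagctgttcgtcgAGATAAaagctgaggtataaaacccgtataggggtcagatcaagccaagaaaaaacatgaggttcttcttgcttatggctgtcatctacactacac
Il1rl1 (chr1:40429320-40429619, forward strand): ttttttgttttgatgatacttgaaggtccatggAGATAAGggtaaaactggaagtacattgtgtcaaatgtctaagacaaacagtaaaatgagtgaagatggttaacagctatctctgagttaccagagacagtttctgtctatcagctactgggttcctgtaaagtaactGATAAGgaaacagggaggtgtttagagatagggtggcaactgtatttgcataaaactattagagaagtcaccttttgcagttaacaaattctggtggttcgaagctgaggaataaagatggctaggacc
Add2 (chr6:86028431-86028730, forward strand): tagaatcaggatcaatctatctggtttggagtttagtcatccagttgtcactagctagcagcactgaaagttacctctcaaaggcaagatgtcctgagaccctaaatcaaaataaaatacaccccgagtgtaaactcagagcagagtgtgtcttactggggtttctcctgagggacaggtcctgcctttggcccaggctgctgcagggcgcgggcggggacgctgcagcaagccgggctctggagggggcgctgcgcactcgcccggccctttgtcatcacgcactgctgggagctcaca
Hdc (chr2:126618629-126618928, reverse strand): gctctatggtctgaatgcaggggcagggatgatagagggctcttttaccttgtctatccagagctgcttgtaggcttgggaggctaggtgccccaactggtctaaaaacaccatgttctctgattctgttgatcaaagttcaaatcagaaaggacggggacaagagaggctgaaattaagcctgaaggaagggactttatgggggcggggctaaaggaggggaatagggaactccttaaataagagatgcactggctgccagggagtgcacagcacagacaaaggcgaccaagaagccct
Cpa3 holds 1 match at -46, Il1rl1 holds 3 between -217 and -79, counting an overlapping pair, and the windows of Add2 and Hdc hold none. Of the genes lowest in LMPP, 10 of 55 promoters (18.2%) held AGATAA and 9 (16.4%) held GATAAG, against 11.4% and 7.43% of all promoters. Among genes highest in LMPP the counts were 5 and 1 of 59. The erythroid list held AGATAA in 9 and GATAAG in 12 of 30 promoters, and the mast cell list in 6 and 4 of 21. These groups overlap, since 6 genes of the erythroid list and 4 of the mast cell list are among the genes lowest in LMPP. The matches describe letters and show no binding, and whether a GATA factor acts in the pattern was not tested.

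The opposite pattern, highest in LMPP by more than 2-fold in both genotypes, held for 73 of 11996 genes (0.609%). It included Satb1 and Flt3 and was led by Zfp365, Pomc, Tox3 and Tex33. Zfp365 stood at -0.78 and -1.29 in LMPP and was not well above background in any HSC or CLP array. Pomc, the hormone precursor gene, stood at -3.08 in HSC and -0.89 in LMPP of wild type and at -3.34 and -1.06 in the null arrays, and was not well above background on either CLP array. Of the 73, 31 were well above background on all 6 arrays.

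**Figure D4:**
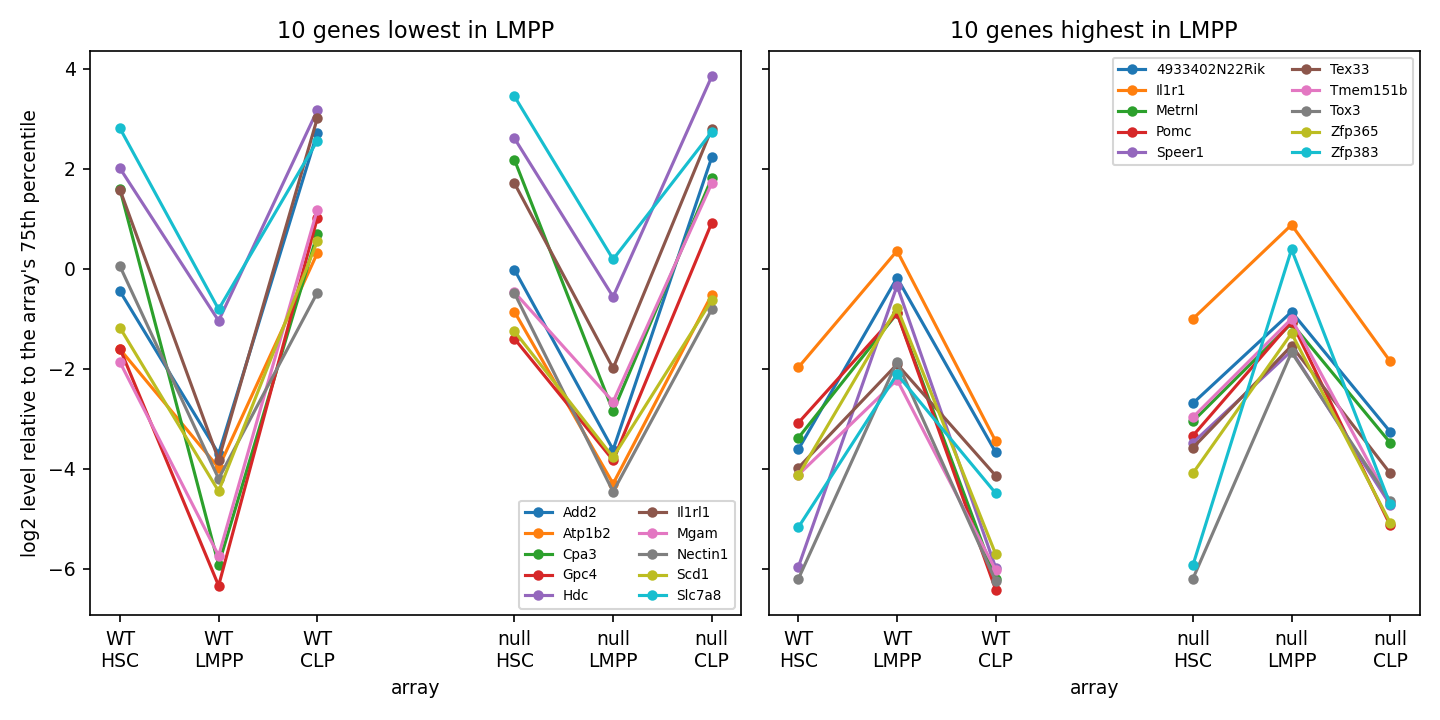
Lines join the log2 level relative to the array's 75th percentile in HSC, LMPP and CLP within each genotype, for the 10 genes with the largest margin below (left) and above (right) both other populations. Points below about -4, and some near it, are not well above background and show no measured level; Cpa3 drops from 1.59 and 2.18 in HSC to such a point in wild type LMPP and to -2.85 in null LMPP, and stands at 0.69 and 1.81 in CLP.

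Cytokine receptors had 11 of 38 members higher and 4 lower (5 rose and 1 fell), with a median of 0.12 that turned negative with detected-probe centring and with the authors' values. The receptor chains for granulocyte-macrophage colony-stimulating factor, Csf2ra (2.74 and 2.13), Csf2rb (1.95 and 1.44) and Csf2rb2 (1.98 and 1.76), rose with Il7r and Il6ra. Il2rg, the common gamma chain that pairs with Il7r, differed by -1.31 and -1.05 without a call, and Csf3r, the receptor for granulocyte colony-stimulating factor, by -0.25 and -0.18.

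Interferon response genes leaned lower, with 9 of 39 lower and 2 higher (5 fell and 1 rose, median -0.49). Oasl2, an antiviral gene, stood at 1.06 and 0.89 in HSC and at -0.89 and -1.74 in CLP (limma adjusted p = 0.0225), and Oas1a, Oas3 and Gbp2 fell. Ifit3b rose by 2.22 and 2.44 by its brightest probe but differed by at least -0.73 and -0.84 by its other, which was not well above background on either CLP array. The p53 target list had 5 of 23 higher and 6 lower, with a median of -0.14 that turned positive with median centring and with the mean over probes. Perp and Pmaip1, which act in cell death, rose, and Cdkn1a, Phlda3 and Plk2 fell. In the Bcl2 family 3 of 19 were higher and 1 lower (median 0.43), where Bcl2a1d, a survival gene of leukocytes, rose by 5.10 and 3.41 and Bok fell.

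Of 43 immediate early genes, 4 were higher and 6 lower (median 0.02, negative with detected-probe centring, normexp, the authors' values and the mean over probes). Nr4a1, an orphan nuclear receptor, fell by 1.46 and 1.51 (limma adjusted p = 0.0377), Fosl2 fell, and Egr1 (0.04 and 0.19) and Fosb (0.12 and -0.14) did not move past 2-fold. Of 23 heat shock chaperones, Hspa1a was higher by 2.01 and 1.04 without a call and 0 were lower, with a median of 0.00 whose sign turned under the same settings. In the Myc and Mxd network 3 of 21 were higher and 1 lower, with a median of -0.29 that turned positive with median centring. Mycn fell as given above, and its antagonist Mxd1 rose by 2.34 and 1.94 (limma adjusted p = 0.0215).

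Housekeeping lists differed little. Of 26 glycolysis genes 3 were higher and 1 lower (median 0.34); the myeloid hexokinase gene Hk3 rose by 4.32 and 2.57, and Gapdh differed by 0.63 and 0.40, although 2 of its other probes differed in sign in the null pair. Of 50 oxidative phosphorylation genes and 50 cytosolic ribosomal protein genes, 0 passed 2-fold in both pairs in either direction, with medians of 0.24 and -0.06, the latter positive with median centring. These counts are by the brightest probe of each gene. For Rps24 that probe differed by -0.28 and -0.59. Its other probes, well above background on all 4 arrays, differed by -3.19 and -3.14 and by 0.09 and -0.14. Hepatocyte genes, markers of the liver parenchyma, were few: 12 of 25 were not well above background on the HSC and CLP arrays, Ttr, Fga, Fgb and Fgg among them. Of the 9 compared 3 were lower and 0 higher; the median of the pair means was 0.03 (negative with detected-probe centring, normexp, the authors' values, the mean over probes and no filter), while the medians were -0.33 in the wild type pair and -1.18 in the null pair and the mean was -1.01. The summed hepatocyte level was 25.4 to 34.9 in HSC and 4.92 to 7.17 in CLP with Dlk1 counted in it, and Apoa2 differed by -0.33 and -0.28.

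**Figure D5:**
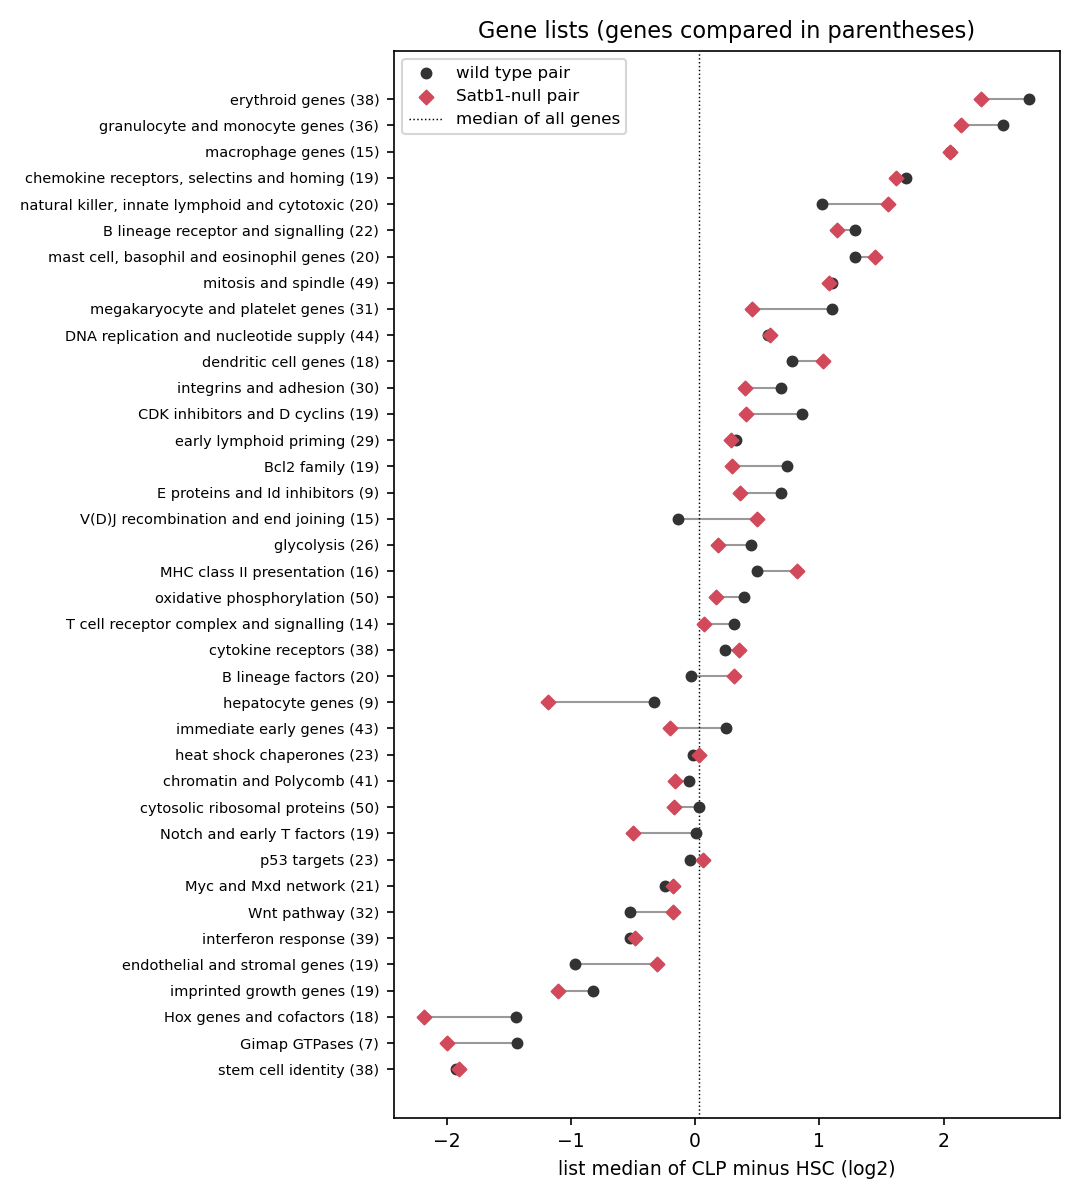
For each gene list (number of genes compared in parentheses) the median CLP minus HSC difference (log2) is shown for the wild type pair (circles) and the Satb1-null pair (diamonds); the dotted line is the median of all genes, 0.03. Erythroid genes (2.69 and 2.30) and granulocyte and monocyte genes (2.48 and 2.14) lie highest. Stem cell identity genes (-1.92 and -1.90) and Hox genes (-1.44 and -2.18) are among the lowest. In several lists the median of the pair means, which is not plotted, is near 0 and changes sign with the scaling. They are the B factor, Notch, T cell receptor, cytokine receptor, hepatocyte, p53, immediate early, heat shock, Myc, ribosomal and chromatin lists. For hepatocyte genes that median is 0.03, while the plotted medians are -0.33 and -1.18.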

How the data were processed

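RNA of 6 sorted samples was measured on single-channel Agilent arrays, 1 array per genotype and population, and groups were taken from the sample titles. The scanner files that the authors deposited hold linear spot intensity values, made with Agilent Feature Extraction 10.10.1.1, per the file headers (10.10 in the submitters' processing notes). The authors' processed values, also an intensity, equal the processed signal of the scanner files times a constant per array (5.71 to 8.77). Their column medians were 200.1, 140.2, 120.7, 165.3, 145.6 and 124.9 (wild type HSC, LMPP and CLP, then null), and the basis of the constants is unknown. No column of other samples was present (0).

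From the 62976 spots per array, 3671 control spots and 154 to 181 outlier spots were left out. The processed signal was centred on the 75th percentile over non-control spots after log2, repeat spots were averaged, and the brightest probe stood for a gene. The 55681 probes were named by accession through RefSeq (GRCm38.p6), which gave 20655 genes and left 28446 probes unnamed. The number of arrays limits the precision.

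Pair differences were counted past 2-fold the same way in both pairs. The limma fit (3.58.1 in R 4.3.3; lmFit and eBayes, genotype and population as terms, Benjamini-Hochberg adjustment, 2 residual degrees of freedom) used 13725 genes, each well above background on 2 arrays or more, with values below the lowest signal well above background raised to it. The script was tested on simulated data. Alternatives were other centrings, normexp (offset 50) with quantile normalization, the authors' values, the mean over probes, no filter, thresholds of 1.5-fold and 3-fold, other fits and each pair alone. The normexp setting used the median spot signal, since the scanner files used here hold no mean signal.

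The comparison, the 38 gene lists (1075 genes, 1059 matched, 82 in several lists) and the tests were chosen with earlier results of these data known. The text names the sort markers with Satb1; the 12 genes furthest up and the 12 furthest down by the smaller pair difference and up to 6 bounds each way; up to 5 members each way of each list and its 2 brightest others; 10 genes lowest and 10 highest in LMPP; and up to 5 genes each way that ran opposite in the pairs. Others are marked as named after their values were seen, and single members printed with no value are from the same lists.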

Additional observations from a re-analysis of the deposited data

Results flagged for a closer look

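For 10 genes the wild type pair and the Satb1-null pair ran past 2-fold in opposite directions, and each is given as the CLP minus HSC difference of the null pair minus that of the wild type pair (log2). With 1 array per group the difference between the pairs was not tested, and the genes are the 5 most divergent each way of 224, ranked on values that include lower bounds. Negative values, higher in CLP of wild type and lower in CLP of the null pair, were at least -10.26 for Chst1, a sulphotransferase, -7.66 for Ramp3, a receptor activity-modifying protein, at least -7.24 for Ttyh1, -6.39 for Zfp689 and at least -6.00 for 4933413J09Rik. Positive values were at least 6.60 for Rab13, a small GTPase, at least 5.76 for Efcab9, 5.46 for Ica1l, at least 5.18 for Mamdc4 and at least 4.93 for Gm3893. The values with "at least" bound the size of the difference and rest on 1 or more arrays not well above background. For Zfp689, Mamdc4 and Gm3893 the other probes, well above background on all 4 arrays, did not give these differences: Mamdc4 was at 0.84 and 0.98 and Gm3893 at -1.85 and -0.88 in the wild type and null pairs, and Zfp689 at -0.08 and 1.24 and at -0.75 and 2.17.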

How the results depend on the processing

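Counts past 2-fold in both pairs (1192 higher, 873 lower) became 1958 and 552 with median centring, 681 and 379 with normexp, 2131 and 1640 at 1.5-fold and 588 and 436 at 3-fold. With all 4 arrays well above background 504 were lower. A single pair gave 2104 to 2482 higher and 1980 to 2192 lower. The limma calls (675 higher, 456 lower) became 1361 higher with median centring, 125 and 94 without a filter, 0 and 0 with the 4 HSC and CLP arrays only (3204 genes at an unadjusted p under 0.05), and 1323 and 728 with a brightness trend. The 70 genes lowest in LMPP became 24 with normexp, 135 without a filter, 181 at 1.5-fold and 23 at 3-fold, and 23 of them also lay within 2-fold between CLP and HSC (chosen after seeing the data). The 73 genes highest in LMPP became 14, 111, 277 and 15 under the first 4 of these settings. The causes were not tested. The number of lists with a median above that of all genes was 23, and 22 to 23 under the alternatives. Of 204 named genes past 2-fold in both pairs, 145 kept that call under all alternatives but the 3-fold threshold. Bcl2l15 reversed, to -0.45 with the mean over probes. Of 165 named genes that limma called, 165 lost the call with 4 arrays and 107 without a filter. Genotype, which pairs the arrays, was a term of the fit, and without it 887 genes were higher and 545 lower. Signal near background limits the 253 higher and 369 lower genes that rest on a bound.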
